A study of Mus musculus with 6 samples.

Results

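The insulin-like growth factor (IGF) system was followed through single cells of the mouse brain 24 h after an experimental stroke or sham surgery. Its 10 members here were both ligands (Igf1, Igf2), both receptors (Igf1r, Igf2r) and 6 binding proteins (Igfbp2 to Igfbp7), taken by symbol from a table of 27998 genes. The brains came from C57BL/6 mice aged 6 to 8 weeks that had undergone sham surgery or occlusion of the middle cerebral artery (MCAO), which models ischemic stroke, and were digested with papain and freed of myelin. Each group had 3 droplet libraries, 6 in all, and the 2 groups shared strain, age, tissue and time after surgery. The labels name no transgene, allele or drug and do not say whether a library came from 1 animal, so the spread between libraries may be partly technical. The genes were chosen by their known biology together with their levels across cell classes and in sham against MCAO, so those levels and differences are given as a description, with no test.

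Insulin-like growth factors are small secreted proteins that resemble insulin. Igf1 and Igf2 signal through the receptor tyrosine kinase Igf1r, which acts on growth and survival, while Igf2r takes up and clears Igf2 and also carries lysosomal enzymes. Binding proteins hold the ligands outside the cell, lengthen their life and limit or direct their access to the receptor, and proteases set the ligands free again. In the adult brain Igf1 is known as a product of microglia and other macrophages, and Igf2 as one of the choroid plexus and the brain's coverings.

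After filtering, 52553 of 58528 cell barcodes remained, between 7406 and 10356 per library, with 25135690 to 42848023 UMIs (unique molecular identifiers, each a counted RNA molecule) per library before filtering. Median UMIs per kept cell were 2324 to 2397 in sham and 2752 to 3392.5 in MCAO, and any pair of libraries shared 77 to 184 barcode sequences (0.950% to 1.84% of the smaller library). Clustering, done without the 10 genes, gave 30 clusters, which were named by RNA markers, so that every class name stands for "-like" cells. Of 15 named classes, 13 had at least 20 cells in every library, the smallest 23. Endothelial cells were 53.8% ± 0.678 (SD, n = 3) of sham cells and 40.8% ± 0.911 of MCAO cells, and microglia were 23.9% ± 0.768 and 21.3% ± 0.338. Monocyte-derived cells were 0.546% ± 0.00957 of sham and 4.92% ± 0.109 of MCAO cells. The 6 clusters left unnamed held 1.65% ± 0.173 of sham and 4.22% ± 0.187 of MCAO cells, and no cluster was named neurons by the neuronal markers. Levels below are CPM values, a gene's share of the UMIs summed over a class on the usual counts-per-million scale, scaled between libraries, and a difference is the log2 ratio of MCAO over sham with its standard error (SE). Since UMIs were counted from the 3' end and genes differ in how well they are captured, no level is compared between genes.

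Igf1 (ENSMUSG00000020053) lies on mm10 chromosome 10 from 87858265 to 87937042 (+ strand), Igf1r (ENSMUSG00000005533) on chromosome 7 from 67952827 to 68233668 (+) and Igf2 (ENSMUSG00000048583) on chromosome 7 from 142650766 to 142666816 (-). Igf2r (ENSMUSG00000023830) spans 12682406 to 12769664 of chromosome 17 (-). Its antisense neighbour Airn had 454 UMIs in the kept cells against 1441 for Igf2r. No strand setting of the counting is given in the sources used here, so reads of that pair may not be fully separated. Igfbp2 (ENSMUSG00000039323, 72824503 to 72852474, +) and Igfbp5 (ENSMUSG00000026185, 72857932 to 72874884, -) are neighbours on chromosome 1. Igfbp3 (ENSMUSG00000020427, 7206086 to 7213923, -) and Igfbp4 (ENSMUSG00000017493, 99041244 to 99054392, +) are on chromosome 11. Igfbp6 (ENSMUSG00000023046) is on chromosome 15 from 102144362 to 102149511 (+) and Igfbp7 (ENSMUSG00000036256) on chromosome 5 from 77349240 to 77408041 (-). Of these genes, Igf1, Igf2 and Igfbp7 also overlap counted genes on the opposite strand, and Igf1r and the other binding proteins overlap none.

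Most members were concentrated in a few classes. Border macrophages, the resident macrophages of vessels and meninges, held 72.2% of the Igf1 UMIs of sham cells and 30.8% of those of MCAO cells, while the microglial share was 7.27% in sham and 55.2% in MCAO. Endothelial cells held 89.5% and 79.2% of the Igf1r UMIs, 94.9% and 92.3% of those of Igfbp3, and 74.5% and 75.8% of those of Igfbp7. For Igfbp4 the endothelial share was 18.1% in sham and 61.2% in MCAO. Choroid plexus epithelium held 62.9% and 62.0% of the Igf2 UMIs and 74.7% and 65.3% of those of Igfbp2. These shares move with the number of cells of each class as well as with the level per cell, and the levels follow below.

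**Figure D1:**
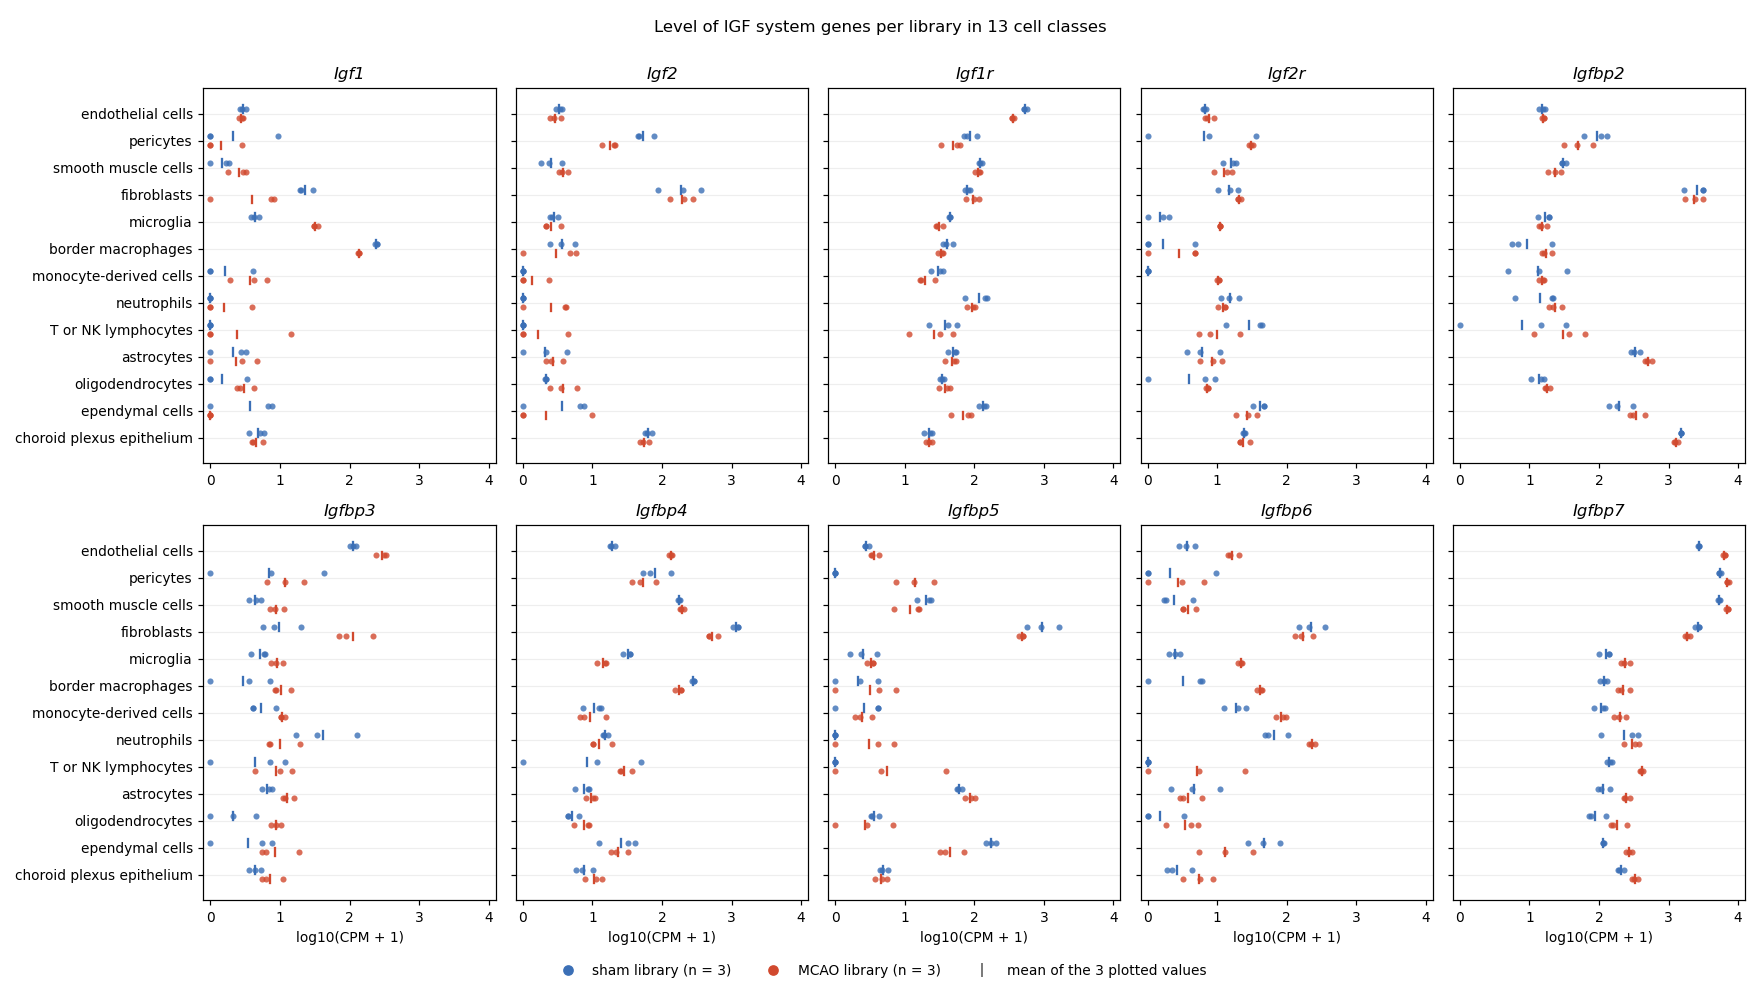
Level of each of the 10 genes in 13 cell classes, as log10(CPM + 1) on the horizontal axis, with 1 point per library (3 sham in blue, 3 MCAO in red) and a tick at the mean of the 3 plotted values. Igf1 is highest in border macrophages, Igf1r in endothelial cells, Igf2 and Igfbp2 in fibroblasts and choroid plexus epithelium, and Igfbp7 in endothelial cells, pericytes, smooth muscle cells and fibroblasts.

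How many members differed depended on the class, and each count is set beside the share of all tested genes of that class whose 3 sham and 3 MCAO libraries did not overlap in the same direction. In endothelial cells all 10 members passed the filter on low counts, 5 were higher in every MCAO library than in every sham library (background 27.9%) and 1 was lower (27.6%). All 10 passed in microglia too, with 5 higher (31.8%) and 2 lower (34.1%). Among the 7 members that passed in astrocytes, 4 were higher (18.3%) and none was lower (17.1%). Of 6 in border macrophages, 2 were higher (20.5%) and 3 lower (20.4%). Fibroblasts, the cells of the meninges and larger vessels, had 8 members that passed, of which 1 was higher (11.3%) and 3 lower (10.2%). Of 5 in pericytes, the contractile cells of capillaries, 1 was higher (15.9%) and 2 lower (15%). Because the genes were chosen with this contrast in view, nothing is read from these counts.

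**Figure D2:**
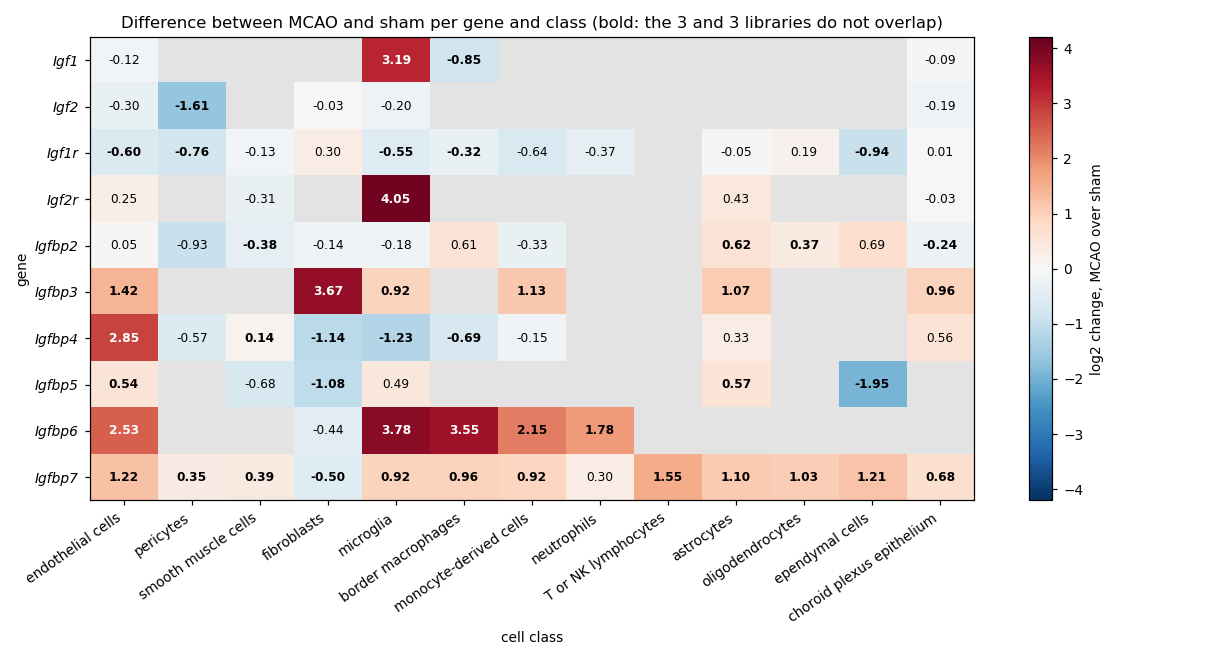
Log2 difference of MCAO over sham for each gene (rows) and class (columns), in colour and as a number, in bold where the 3 and 3 libraries did not overlap. Gray marks genes that did not pass the filter on low counts or had no UMI in 1 group. Igfbp4 is higher in endothelial cells (2.85) and lower in fibroblasts (-1.14), microglia (-1.23) and border macrophages (-0.69).

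Igf1, the main circulating and local growth factor of the family, was measured at 246, 228 and 251 CPM in the border macrophages of the 3 sham libraries and at 138, 129 and 135 CPM in those of the 3 MCAO libraries. All MCAO values were below all sham values, and the log2 difference was -0.85 (SE 0.11). In microglia, the resident immune cells of the brain tissue, Igf1 stood at 2.84, 4.05 and 3.30 CPM in sham and at 29.65, 33.6 and 29.5 CPM in MCAO. The microglial groups lay far apart, with a log2 difference of 3.19 (SE 0.16) on 52 and 729 UMIs. Border macrophages remained the class with the highest Igf1 level in both groups, and in MCAO microglia came second, with no overlap between the libraries of the 2 classes. Fibroblasts were the second class in sham, at 22.1 CPM ± 5.83 (SD, n = 3) on 10 UMIs, and were at 4.47 CPM ± 3.89 in MCAO on 2 UMIs. In the other 10 classes the mean was below 5 CPM in both groups. Beside border macrophages and microglia, Igf1 passed the filter in choroid plexus epithelium and endothelial cells, where the groups overlapped.

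Microglia fell into 3 clusters, and Igf1 differed between them. The cluster led by P2ry12, a receptor typical of resting microglia, held 5616 sham and 141 MCAO cells. Its Igf1 level was 1.63 CPM ± 0.466 in sham, and 0 UMIs were counted in its 141 MCAO cells, which allows a share of cells with a UMI of up to 2.13%. The cluster led by Ccl12 and Tnf, genes of inflammatory signalling, held 283 sham and 3513 MCAO cells, with 33.5 CPM ± 5.55 in sham and 6.23 CPM ± 0.231 in MCAO. The cluster led by Mmp12, Lpl and Spp1, genes known from lipid-handling, phagocytic microglia, held 15 sham and 2274 MCAO cells, and its MCAO libraries ranged from 55.6 to 68.3 CPM of Igf1. This cluster had the weakest microglia score, 0.63 against 0.9997 (P2ry12-led) and 0.87 (Ccl12-led). The score averages, over markers, the share of cells with a UMI relative to the highest cluster. None of its 10 leading genes was a microglia marker, while 10 microglia markers were each found in at least 25% of its cells. Within the Ccl12-led cluster the MCAO libraries were therefore lower than the sham libraries, against the direction in the class as a whole, while 644 of the 729 microglial Igf1 UMIs of MCAO lay in the Mmp12-led cluster. In that cluster 13.8%, 14.8% and 17.1% of cells per MCAO library had an Igf1 UMI, at a median depth of 4450 UMIs in the cluster, against 0.485% ± 0.0879 of MCAO endothelial cells at a median of 2368. Without the Mmp12-led cluster, a setting chosen after seeing the data, the microglial difference was 0.86 (SE 0.25). Igf1 was not higher in MCAO within either remaining cluster, however. Most of the remaining sham cells were in the P2ry12-led cluster and most of the remaining MCAO cells in the Ccl12-led one, whose Igf1 level was higher. The class value therefore moves with the mix of clusters as well as with the level within them.

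Because border macrophages carry the most Igf1, their 11 markers were read in the same microglia clusters. In the Mmp12-led cluster of MCAO, Igf1 stood at 46.7% of its border macrophage level, while the 11 markers had a median of 0.780% and a range from 0.531% to 23.5%. In the sham cells of the Ccl12-led cluster Igf1 was at 13.9% and the markers had a median of 0.729% and a range from 0.382% to 12.8%. Igf1 was thus above all 11 markers in both. In the sham cells the margin was narrow and rested on few cells, with an Igf1 UMI in 6, 6 and 5 cells per library. Over all MCAO microglia Igf1 was at 22.99% ± 2.71 and 1 of the 11 markers was above it. Cells with an Igf1 UMI made up 44.7% ± 1.85 of sham and 32.4% ± 4.14 of MCAO border macrophages. At an equal depth of 1500 UMIs per cell these shares were 31.4% ± 3.23 and 16.4% ± 1.01, with 23 of 764 sham and 17 of 865 MCAO cells left out as shallower.

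**Figure D3:**
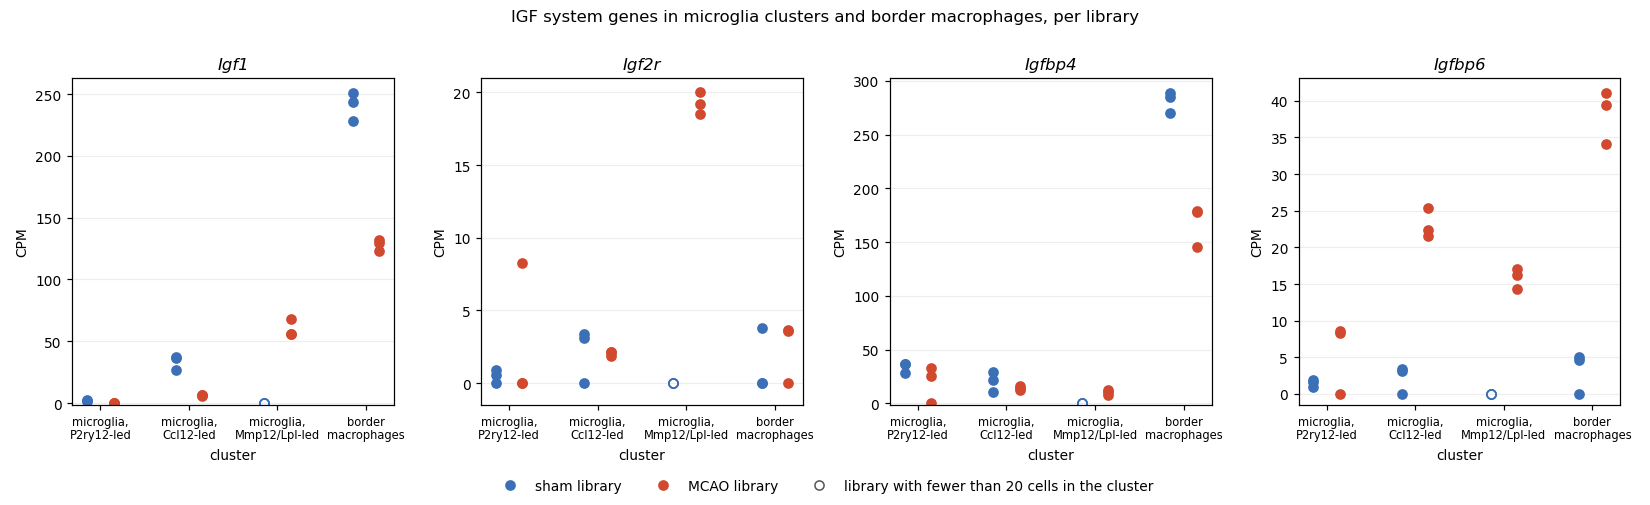
CPM of Igf1, Igf2r, Igfbp4 and Igfbp6 per library in the 3 microglia clusters and in border macrophages, sham in blue and MCAO in red, with open points for libraries with fewer than 20 cells in the cluster. Igf1 is at 55.6 to 68.3 CPM in the Mmp12-led cluster of MCAO and is lower in MCAO than in sham in the Ccl12-led cluster and in border macrophages.

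Igf2, an imprinted growth factor of fetal life, was highest in fibroblasts. Sham libraries gave 368, 86.6 and 201 CPM and MCAO libraries 274, 128 and 208 CPM on 94 UMIs in each group. The groups overlapped widely (log2 difference -0.03, SE 0.47). Choroid plexus epithelium, which makes cerebrospinal fluid, came second at 60.7, 70.9 and 56.2 CPM in sham and 53.0, 47.0 and 64.1 CPM in MCAO, also overlapping. Pericytes followed at 43.8, 75.6 and 45.7 CPM in sham and 20.03, 12.8 and 19.3 CPM in MCAO. The 2 groups of pericytes did not overlap (log2 difference -1.61, SE 0.44), on 21 and 26 UMIs. In sham the libraries of choroid plexus epithelium and pericytes overlapped each other, while in MCAO these classes were apart. As a percent of the fibroblast level, Igf2 in pericytes was at 44.2% ± 44.6 in sham and 9.74% ± 1.502 in MCAO. The fibroblast markers there had a median of 6.36% (11 markers, range 0 to 83.6%) in sham and 8.71% (10 markers, range 0.428% to 62.2%) in MCAO, and their part in the difference was not tested.

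Igf1r, the signalling receptor for both ligands, was highest in endothelial cells, which line the vessels and form the blood-brain barrier. It stood there at 577, 520.5 and 520.5 CPM in the sham libraries and at 348.5, 348 and 372 CPM in the MCAO libraries. All MCAO values were below all sham values (log2 difference -0.60, SE 0.05; 16671 and 10793 UMIs). An Igf1r UMI was found in 66.1% ± 1.31 of sham and 53.4% ± 4.15 of MCAO endothelial cells, and at 1500 UMIs per cell in 52.9% ± 2.11 and 39.9% ± 1.85. For comparison, choroid plexus epithelium had shares of 3.24% ± 0.465 in sham and 3.335% ± 0.354 in MCAO at that depth. The classes next in order in sham were ependymal cells at 132 CPM ± 15.6, smooth muscle cells at 122 CPM ± 6.11 and neutrophils at 122 CPM ± 42.3, whose libraries overlapped from one class to the next. Ependymal cells, the ciliated lining of the ventricles, were lower in MCAO at 44.7, 88.3 and 79.0 CPM against 139, 115 and 144 CPM (log2 difference -0.94, SE 0.29). Microglia were lower at 26.8, 28.0 and 34.55 CPM against 42.8, 43.1 and 44.4 CPM (-0.55, SE 0.10), and pericytes at 49.9 CPM ± 15.8 against 85.9 CPM ± 20.6 (-0.76, SE 0.33). Border macrophages were lower by a narrow margin, at 34.4, 33.0 and 29.2 CPM against 49.2, 34.4 and 38.2 CPM (-0.32, SE 0.22). Igf1r was thus lower in 5 of the 12 classes in which it passed the filter. By the same measure 27.6% of all tested genes were lower in endothelial cells, 13.2% in ependymal cells and 34.1% in microglia. In pericytes the share was 15% and in border macrophages 20.4%, and nothing is read from the count. Smooth muscle cells (-0.13, SE 0.10), astrocytes (-0.05, SE 0.17) and neutrophils (-0.37, SE 0.28) overlapped.

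Endothelial cells fell into 7 clusters, and most of them belonged mainly to 1 group. The cluster led by Ndnf and Hmcn1 held 9239 sham and 630 MCAO cells and one with Plat and Nostrin among its leading genes, called the Plat/Nostrin cluster, 115 and 5340; they detected 8 and 7 of 8 capillary markers. A cluster led by Gkn3 held 3210 sham and 389 MCAO cells, and one led by Adamts9 and Apln 21 and 2878. The cluster called arterial-like here, led by Cytl1 and Fbln5, had 4 arterial markers among its 10 leading genes and the Gkn3-led cluster had 2, so that cells with arterial markers were not all in 1 cluster. The Cytl1-led cluster held 210 and 1281 cells, the venous-like one, led by Ackr1 and Lrg1, 367 and 713, and one led by Rbp7 and Plvap, a gene of fenestrated vessels, 141 and 138. Of these, 6 had at least 20 cells in every library. Igf1r was lower in MCAO in the Ndnf-led cluster (623 CPM ± 31.1 against 511 ± 9.77), the Gkn3-led cluster (451 ± 31.0 against 350 ± 23.9) and the venous-like cluster (257 ± 35.9 against 171 ± 18.2). It was higher in the Cytl1-led arterial-like cluster (93.3 CPM ± 41.9 in sham against 271 ± 29.2 in MCAO), and the groups overlapped in the Plat/Nostrin and the Plvap-led cluster. The Adamts9-led cluster, nearly all from MCAO, stood at 133 CPM ± 1.61, below every MCAO library of the Ndnf-led, Plat/Nostrin and Gkn3-led clusters.

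**Figure D4:**
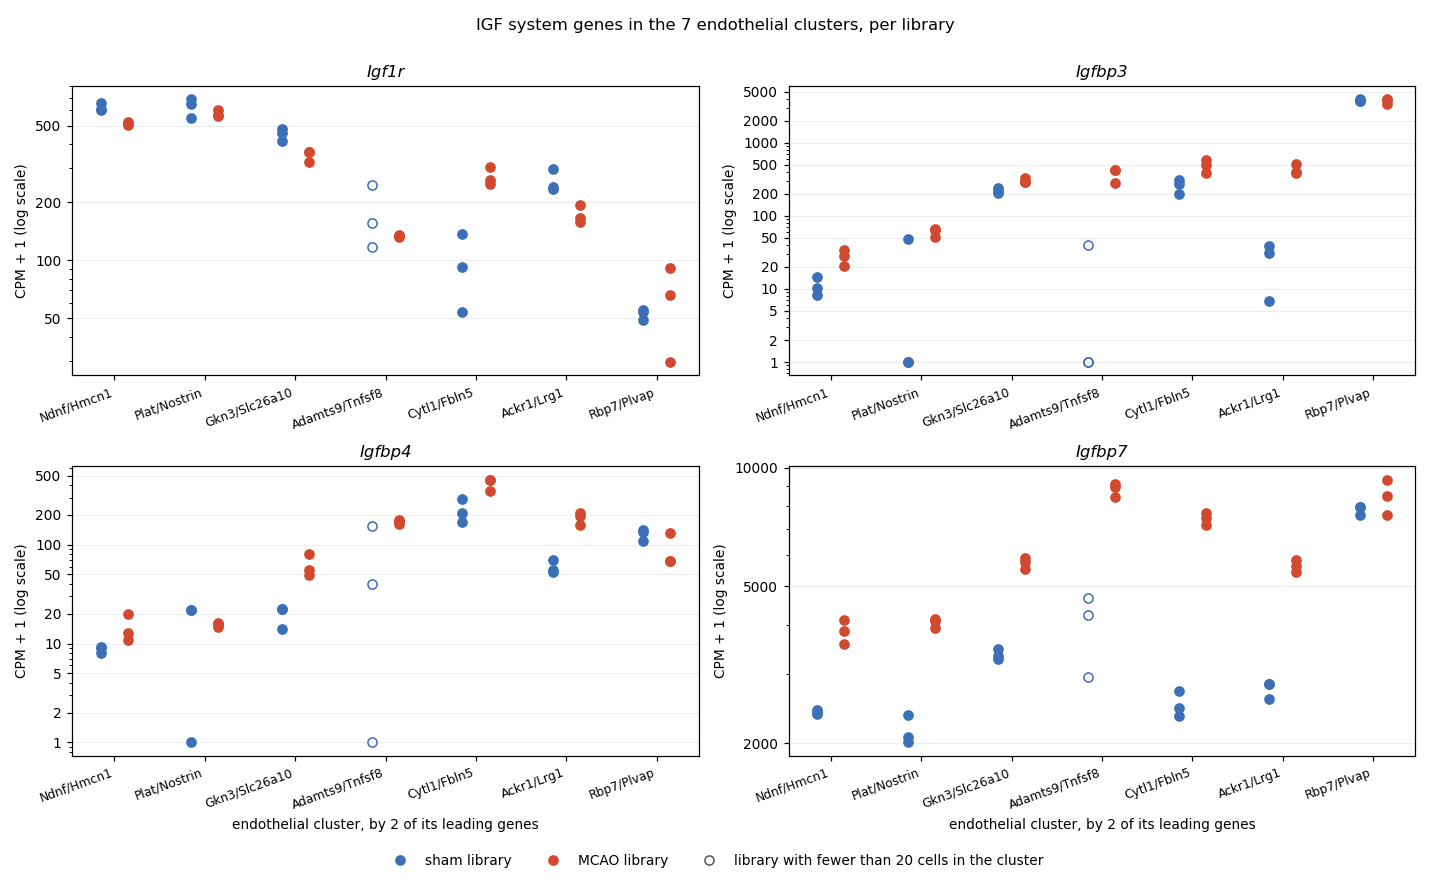
CPM + 1 on a log scale of Igf1r, Igfbp3, Igfbp4 and Igfbp7 in the 7 endothelial clusters, 1 point per library, sham in blue and MCAO in red, open where a library had fewer than 20 cells in the cluster. Igf1r is highest in the Ndnf-led and Plat/Nostrin clusters, Igfbp3 in the Plvap-led cluster and Igfbp4 in the arterial-like cluster of MCAO (Cytl1/Fbln5).

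Igf2r, the clearing receptor, was counted with 1441 UMIs in all kept cells. Its highest levels were 41.2 CPM ± 8.39 in sham ependymal cells on 22 UMIs and 29.8 CPM ± 2.42 in MCAO pericytes on 44 UMIs. Neither class passed the filter for this gene, and the leading classes overlapped in both groups. Choroid plexus epithelium was at 24.2, 23.1 and 22.7 CPM in sham and 19.98, 20.5 and 28.3 CPM in MCAO, which overlapped too. In microglia Igf2r was at 1.01, 0 and 0.695 CPM in sham and at 9.96, 10.00 and 10.1 CPM in MCAO, on 9 and 236 UMIs (log2 difference 4.05, SE 0.35). Without sham replicate 1 the difference was 4.67. Of the 236 UMIs, 207 lay in the Mmp12-led cluster, where 7.47%, 8.39% and 8.94% of cells per library had one. Monocyte-derived cells, which enter from the blood, had no Igf2r UMI in 135 sham cells, which allows a share of up to 2.22% of cells with a UMI, and 66 UMIs in 1366 MCAO cells, at 9.68, 9.61 and 8.89 CPM. Against a floor of 3 UMIs over the sham group, their level was at least 2.66-fold higher in MCAO. The 2 groups of this class lay in different clusters, however: all 135 sham cells were in a cluster led by Plac8, which held 274 MCAO cells, and the other 1092 MCAO cells were in a cluster led by Arg1 with 0 sham cells. Of the 66 UMIs, 61 lay in the Arg1-led cluster, and in the Plac8-led cluster the groups overlapped, with 5 UMIs in MCAO and libraries from 0 to 11.1 CPM. Igf2r in MCAO microglia stood at 42.4% ± 8.33 of its choroid plexus level, while the 11 markers of choroid plexus epithelium reached at most 1.81% there.

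Igfbp2, a binding protein of cerebrospinal fluid and glia, was highest in fibroblasts, at 3091, 1674 and 3158 CPM in sham and 3075, 2415 and 1729 CPM in MCAO. The groups overlapped. Choroid plexus epithelium was lower in MCAO, at 1200, 1241 and 1378 CPM against 1529, 1489 and 1494 CPM (log2 difference -0.24, SE 0.05). Astrocytes, the glia that contact vessels and synapses, were higher, at 487, 459 and 584 CPM against 383, 291 and 321 CPM (0.62, SE 0.09). An Igfbp2 UMI was found in 38.2% ± 1.11 of sham and 44.6% ± 3.61 of MCAO astrocytes, and in 25.7% ± 2.29 and 31.9% ± 2.14 at 1500 UMIs per cell. In MCAO astrocytes Igfbp2 was at 37.8% ± 2.07 of the choroid plexus level, while the 11 choroid plexus markers reached at most 3.86%. Ependymal cells were at 206 CPM ± 85.4 in sham and 346 CPM ± 99.6 in MCAO, and these groups overlapped. There 2 of the 11 choroid plexus markers in sham and 1 in MCAO stood at a higher percent of their choroid plexus level than Igfbp2 did.

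Igfbp5, a binding protein that also attaches to extracellular matrix, was likewise highest in fibroblasts among the named classes. In MCAO an unnamed cluster led by Slc47a1 and Sfrp4, given under other observations, had a higher mean. In fibroblasts Igfbp5 was at 905, 1623 and 564 CPM in sham and at 498, 504 and 442 CPM in MCAO, lower in all 3 MCAO libraries (log2 difference -1.08, SE 0.38). In ependymal cells it was lower too, at 31.3, 70.7 and 36.9 CPM in MCAO against 145, 201 and 175.5 CPM (-1.95, SE 0.31), on 26 and 96 UMIs. Astrocytes went the other way, with 72.9, 88.8 and 102 CPM in MCAO against 64.6, 56.5 and 55.6 CPM (0.57, SE 0.14). Smooth muscle cells, at 19.3 CPM ± 4.70 and 11.7 CPM ± 5.00, overlapped. In pericytes no UMI was counted in 182 sham cells, which allows a share of up to 1.65%, and 22 were counted in 621 MCAO cells. That was at least 1.79-fold higher against a floor of 3 UMIs over the sham group.

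Endothelial cells had 5 binding proteins that were higher in MCAO, Igfbp3 to Igfbp7, beside the receptor Igf1r that was lower. Of these, Igfbp5 was near the floor, at 1.81 CPM ± 0.251 in sham and 2.67 ± 0.559 in MCAO. Its log2 difference was 0.54 (SE 0.26), on 56 and 80 UMIs. Among the 6 endothelial clusters with enough cells, Igfbp5 was higher in 2, lower in 1 and overlapping in 3. Sequence is given for Igf1r and for Igfbp3, Igfbp4 and Igfbp7, whose MCAO UMIs lay mostly in endothelial cells. To show the regulatory sequence of these 4 genes, the 250 bases before each transcription start are given 5' to 3' on the gene's own strand, from RefSeq (GRCm38.p6, the mm10 build). For Igf1r the RefSeq start lies upstream of the GENCODE gene start given above (67952827), so the Igf1r window ends at 67952256. Capitals mark matches, on either strand, to the TATA box TATAAA, the GC box GGGCGG, the core of the hypoxia response element ACGTG and the AP-1 site TGANTCA.
Igfbp3, chr11:7213924-7214173 (-): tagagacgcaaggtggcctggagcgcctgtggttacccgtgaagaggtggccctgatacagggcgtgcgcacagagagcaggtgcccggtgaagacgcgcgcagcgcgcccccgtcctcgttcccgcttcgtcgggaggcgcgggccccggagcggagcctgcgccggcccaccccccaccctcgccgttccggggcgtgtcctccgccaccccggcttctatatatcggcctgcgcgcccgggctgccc
Igfbp4, chr11:99040994-99041243 (+): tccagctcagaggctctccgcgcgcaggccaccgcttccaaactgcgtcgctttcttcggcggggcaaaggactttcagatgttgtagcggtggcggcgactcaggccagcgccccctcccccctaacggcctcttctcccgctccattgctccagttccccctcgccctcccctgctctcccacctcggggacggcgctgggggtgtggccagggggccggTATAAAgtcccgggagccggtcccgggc
Igfbp7, chr5:77408046-77408295 (-): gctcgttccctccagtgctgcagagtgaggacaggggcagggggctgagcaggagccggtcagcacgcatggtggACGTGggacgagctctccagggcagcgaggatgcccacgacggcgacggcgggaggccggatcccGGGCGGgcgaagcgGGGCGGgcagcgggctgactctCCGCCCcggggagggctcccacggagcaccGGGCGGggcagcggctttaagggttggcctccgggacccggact
Igf1r, chr7:67952007-67952256 (+): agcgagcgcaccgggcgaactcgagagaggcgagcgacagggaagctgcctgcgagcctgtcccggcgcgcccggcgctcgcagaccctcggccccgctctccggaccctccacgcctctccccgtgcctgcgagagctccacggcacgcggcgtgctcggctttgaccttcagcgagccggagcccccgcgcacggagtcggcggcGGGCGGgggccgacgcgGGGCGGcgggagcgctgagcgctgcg
Igfbp4 holds a TATA box 28 bases before its start, Igfbp7 holds 4 GC boxes and 1 hypoxia core, Igf1r holds 2 GC boxes, and these letters are not in the Igfbp3 window. Over 32851 RefSeq promoter windows of the same length, 12.4% hold the TATA box, 32.7% the GC box, 16.6% the hypoxia core and 6.75% the AP-1 site. The 4 windows are 69.2% to 77.6% G and C, against a median of 52.4% over all windows. A match describes letters only, and no binding was measured in these samples.

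Igfbp3, the main carrier of IGFs in blood, was at 98.85, 121 and 111 CPM in sham and at 236, 317 and 337 CPM in MCAO endothelial cells, higher in all MCAO libraries (log2 difference 1.42, SE 0.18; 3426 and 8924 UMIs). Neutrophils, second in sham, overlapped with endothelial cells there at 15.75, 125.5 and 33.1 CPM, on 26 UMIs that lay in 7 of 138 cells. Among endothelial clusters the level differed widely. The Plvap-led cluster, with at least 34 cells per library, was at 3780 CPM ± 123 in sham and 3679 CPM ± 310 in MCAO, which overlapped. Venous-like cells were at 24.4 CPM ± 16.6 in sham and 430 CPM ± 73.5 in MCAO, and the Cytl1-led arterial-like cluster at 259 CPM ± 57.9 and 481 CPM ± 97.6. In 5 of the 6 clusters with enough cells the MCAO libraries were above all sham libraries, the Plvap-led cluster being the exception. Leaving that cluster out, a setting chosen after seeing the data, gave a class difference of 1.87 (SE 0.19). Fibroblasts were at 18.9, 7.21 and 4.67 CPM in sham and 89.3, 213 and 69.4 CPM in MCAO (log2 difference 3.67, SE 0.65) on 4 and 55 UMIs. Those UMIs lay in 4 of 139 sham and 10 of 149 MCAO fibroblasts, and at 1500 UMIs per cell the shares were 1.485% ± 1.47 and 2.58% ± 2.28. There Igfbp3 was at 34.3% ± 19.1 of its endothelial level in MCAO, above all 12 endothelial markers (2.85% to 27.7%), and at 8.44% ± 7.06 in sham, within their range (4.98% to 31.6%). In astrocytes and microglia, where Igfbp3 was below 15 CPM in every library, its percent of the endothelial level was 2.65% to 5.22%, at or below the median of the endothelial markers in both groups.

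Igfbp4, a binding protein that mainly holds IGFs away from their receptor, was at 17.1, 17.5 and 20.04 CPM in sham and at 125, 135 and 136.5 CPM in MCAO endothelial cells (log2 difference 2.85, SE 0.07; 567 and 4008 UMIs). The groups were far apart. An Igfbp4 UMI was found in 3.15% ± 0.214 of sham and 13.8% ± 0.615 of MCAO endothelial cells, and in 1.95% ± 0.162 and 8.99% ± 0.309 at 1500 UMIs per cell. Of the 7 clusters the Cytl1-led arterial-like one had the highest level in both groups, at 223 CPM ± 61.6 in sham and 419.5 CPM ± 59.9 in MCAO, and venous-like cells were at 58.6 CPM ± 9.38 and 186.5 CPM ± 24.8. The Gkn3-led cluster, which shares arterial markers, was at 18.65 CPM ± 4.75 in sham and 60.7 ± 16.8 in MCAO. The Adamts9-led cluster of MCAO was at 170 CPM ± 6.53. In 4 of 6 clusters the MCAO libraries were above all sham libraries, while the Plat/Nostrin and Plvap-led clusters overlapped.

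Of the 9 classes in which Igfbp4 passed the filter, 2 were higher in MCAO, 3 were lower and 4 overlapped. Of all tested genes, 27.9% were higher in endothelial cells and 17.3% in smooth muscle cells. The shares lower were 10.2% in fibroblasts, 20.4% in border macrophages and 34.1% in microglia, and nothing is read from the counts. Fibroblasts were at 1234, 1234 and 1064 CPM in sham and 638, 476 and 480 CPM in MCAO (log2 difference -1.14, SE 0.17). Border macrophages were at 287.5, 288 and 270 CPM against 187, 153 and 185 CPM (-0.69, SE 0.10). Both classes were lower in every MCAO library. Microglia were lower as well, at 14.35, 14.9 and 10.5 CPM in MCAO against 26.15, 33.9 and 33.7 CPM (-1.23, SE 0.14). In the 2 microglia clusters with at least 20 cells in every library, the P2ry12-led and the Ccl12-led one, the Igfbp4 groups overlapped. As a percent of the border macrophage level, microglial Igfbp4 was at 11.7% ± 1.99 in sham and 7.67% ± 2.11 in MCAO, with 1 of the 11 markers above it in each. Smooth muscle cells, the contractile cells of arteries, were slightly higher, at 203, 183.5 and 186.5 CPM against 179, 173 and 170 CPM (0.14, SE 0.09). In sham the order was fibroblasts, border macrophages, smooth muscle cells and pericytes, each apart from the next, and in MCAO smooth muscle cells and border macrophages overlapped.

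Igfbp7, a secreted protein of vessel walls that binds IGFs weakly, was at 2702, 2727 and 2636 CPM in sham and at 5961, 6380 and 6381 CPM in MCAO endothelial cells (log2 difference 1.22, SE 0.04). A UMI was found in 97.1% ± 0.182 of sham and 99.2% ± 0.326 of MCAO endothelial cells. The MCAO libraries were above all sham libraries in 5 of 6 clusters, for example at 7425 CPM ± 251 against 2502 CPM ± 185 in the Cytl1-led cluster, and overlapped in the Plvap-led cluster (8459 ± 880 against 7827 ± 203). The Adamts9-led cluster of MCAO had 8812 CPM ± 337. Pericytes were at 5304, 5384 and 5683 CPM in sham and 6853, 7274 and 6808 CPM in MCAO (0.35, SE 0.07). Smooth muscle cells were at 5318 CPM ± 165 and 6970 CPM ± 178 (0.39, SE 0.05), overlapping with pericytes in both groups. Both mural classes were higher in every MCAO library. Fibroblasts were lower, at 1691, 2031 and 1862 CPM in MCAO against 2412, 2727 and 2757 CPM (-0.50, SE 0.15).

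Igfbp7 was also counted at a low level everywhere else. In 9 classes outside endothelium, mural cells and fibroblasts it stood at 3.27% to 8.16% of the endothelial level in sham and 2.94% to 5.95% in MCAO. The 12 endothelial markers were read in the same classes, and Igfbp7 lay within their range in 8 of 9 classes in sham and in 8 of 9 in MCAO. Choroid plexus epithelium of sham was above the range (7.34% ± 0.860, markers up to 5.43%), and neutrophils of MCAO were below it (4.96% ± 1.22, markers from 5.87%). The differences for Igfbp7 in these classes, such as 1.10 (SE 0.11) in astrocytes and 0.92 (SE 0.20) in microglia, stand beside those marker values, and whether they are differences of those cells was not tested. For Igf1r the same reading gave 8.37% ± 0.676 in sham and 8.03% ± 0.715 in MCAO microglia, beside marker ranges of 3.19% to 8.55% and 3.30% to 7.13%, so that only the MCAO value was above its range. In pericytes 2 of the 12 markers were above Igf1r in each group. Smooth muscle cells stood above their markers for Igf1r, at 22.3% ± 0.657 and 31.1% ± 2.397, with markers up to 5.61% and 5.39%. Ependymal cells did so at 20.8% ± 2.31 and 16.8% ± 5.64, with markers up to 16.5% and 9.62%.

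**Figure D5:**
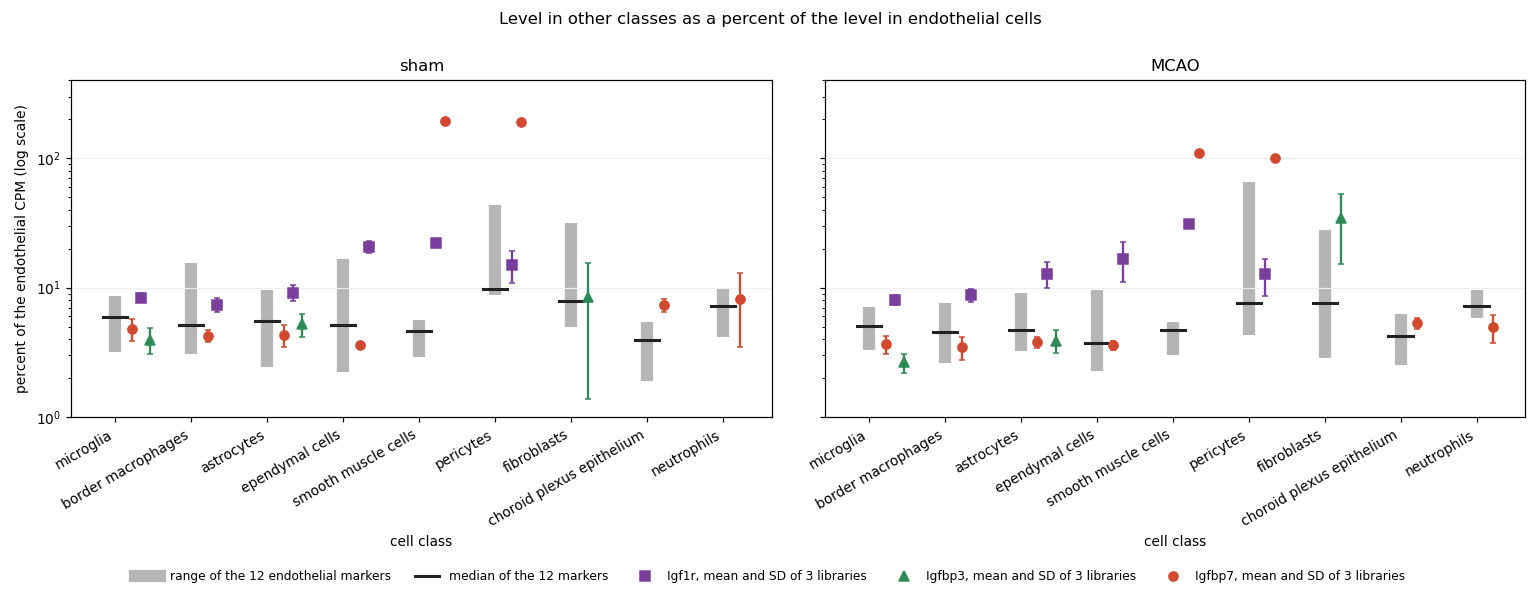
Level of Igf1r, Igfbp3 and Igfbp7 in other classes as a percent of the endothelial CPM (log scale; mean and SD of 3 libraries), beside the range (gray bar) and median (black line) of 12 endothelial markers in the same class. Igfbp7 lies inside the gray bar in microglia, border macrophages, astrocytes and ependymal cells and far above it in smooth muscle cells and pericytes.

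Among the named classes Igfbp6, a binding protein that prefers Igf2, was highest in fibroblasts in sham, at 151, 354 and 210 CPM. Their MCAO libraries, at 160, 242 and 132 CPM, overlapped with sham, and in MCAO neutrophils and fibroblasts overlapped at the top. An unnamed cluster led by Slc47a1 and Sfrp4, given under other observations, had a higher mean than any named class in both groups. Neutrophils were at 47.2, 104.5 and 53.0 CPM in sham and 255, 211 and 221 CPM in MCAO (log2 difference 1.78, SE 0.27), on 32 and 225 UMIs. Monocyte-derived cells were at 11.5, 24.75 and 18.95 CPM in sham and 95.6, 86.45 and 69.25 CPM in MCAO (2.15, SE 0.30). Of their 592 MCAO UMIs, 543 lay in the Arg1-led cluster without sham cells, and in the Plac8-led cluster that both groups share Igfbp6 was at 18.7 CPM ± 7.12 in sham and 47.8 ± 27.9 in MCAO, without overlap. In both classes every MCAO library was above every sham library. Border macrophages were at 4.61, 0 and 5.10 CPM against 43.0, 35.9 and 41.1 CPM (3.55, SE 0.40), on 7 and 121 UMIs. Microglia were at 1.01, 1.49 and 1.91 CPM against 21.9, 19.1 and 21.2 CPM (3.78, SE 0.21), on 23 and 489 UMIs. Endothelial cells followed at 2.74 CPM ± 0.982 and 15.8 CPM ± 3.22 (2.53, SE 0.22), higher in 3 of 6 clusters and overlapping in 3. The venous-like cluster was highest among them, at 28.4 CPM ± 7.49 in sham and 45.5 CPM ± 7.37 in MCAO. As a percent of the neutrophil level in MCAO, Igfbp6 was at 35.3% ± 4.75 in monocyte-derived cells, 16.9% ± 1.03 in border macrophages, 8.72% ± 0.324 in microglia and 6.83% ± 0.867 in endothelial cells. The 10 neutrophil markers had medians of 0.413%, 0.125%, 0.129% and 0.144% there, with highest values of 5.25%, 5.39%, 11.7% and 1.30%, and 1 marker was above Igfbp6 in microglia and none in the other classes.

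The rest of the pathway was read from a list of 41 genes in 4 classes, with edgeR's quasi-likelihood test and Benjamini-Hochberg adjustment over all genes of the class. The list holds proteins that release or cleave IGFs, the insulin receptor and the adaptors, the PI3K, Akt and mTOR kinases and the Igf2 mRNA-binding proteins. It was drawn up with earlier results of these data known, and its p-values measure only the spread between these libraries. In microglia 29 list genes were tested, 5 were higher and 12 lower, against 29.9% and 31.6% of all tested genes. In endothelial cells 8 of 32 were higher and 5 lower, against 24.1% and 22.3%. In astrocytes 2 of 26 were higher and none lower, against 11.9% and 9.64% of all tested genes. At an unadjusted p under 0.05 edgeR also gave 0 lower genes, and DESeq2's adjusted p gave 0. In pericytes 2 of 18 were higher and 1 lower, against 7.91% and 6.23%. The list's median log2 difference was -0.27 in microglia, 0.01 in endothelial cells, -0.05 in astrocytes and 0.00 in pericytes, against -0.05, -0.02, -0.01 and -0.02 over all tested genes.

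Genes acting outside the cell were few in number among those tested. Htra1, a protease that cleaves binding proteins, rose in microglia from 16.1 CPM ± 1.73 to 35.1 ± 2.50 (log2 1.12, SE 0.11, adjusted p = 3.04e-08 by edgeR). In astrocytes it rose from 2035 CPM ± 153 to 2365 ± 79.6 (0.22, SE 0.06, adjusted p = 0.0026). Stc1, a secreted inhibitor of the binding-protein protease Pappa, rose in pericytes from 36.0 CPM ± 9.67 to 383 ± 73.5 (3.38, SE 0.27, adjusted p = 5e-13 by edgeR). In endothelial cells it rose from 4.44 CPM ± 0.899 to 16.7 ± 2.003 (1.89, SE 0.15, adjusted p = 5.62e-09 by edgeR). Pappa itself had 10 UMIs in pericytes and 0 in endothelial cells, and passed the filter on low counts in none of the 4 classes. Htra1 and Stc2, a relative of Stc1, were also called higher in endothelial cells, so that 3 of the 4 tested genes of this group were, beside 24.1% of all tested genes. Htra1 stood far higher in astrocytes than in microglia or endothelial cells, and Stc1 in pericytes than in endothelial cells. Whether the lower levels belong to the cells they were counted in was not tested.

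Among receptors and adaptors, Grb14, an adaptor that restrains insulin receptor signalling, fell in endothelial cells from 129 CPM ± 4.58 to 65.0 ± 1.69 (log2 -0.98, SE 0.05, adjusted p = 1.02e-11 by edgeR). In pericytes it was called lower, from 52.6 CPM ± 15.2 to 16.9 ± 6.41 (-1.60, SE 0.46, adjusted p = 0.0121), on 45 UMIs in all. This call was lost with DESeq2 and without sham replicate 1, sham replicate 3 or any 1 of the MCAO libraries. The insulin receptor Insr and the adaptors Irs2 and Shc1 were called higher in endothelial cells, 3 of 8 tested genes of the group beside 24.1% of all tested genes, and Grb14 was the 1 called lower. In microglia Insr and Grb14 were called lower, 2 of 7 beside 31.6% of all tested genes, and no gene of the group was called higher.

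Of 19 genes of the PI3K, Akt and mTOR group, 9 were lower and 3 higher in microglia, and 4 were lower and 2 higher in endothelial cells. Of all tested genes, 31.6% were lower and 29.9% higher in microglia, and 22.3% and 24.1% in endothelial cells. Pik3ca, a catalytic subunit of PI3K, fell in microglia from 24.0 CPM ± 1.38 to 11.7 ± 1.02 (log2 -1.03, SE 0.12, adjusted p = 3.5e-07 by edgeR). Foxo1, a transcription factor that Akt keeps out of the nucleus, fell there from 22.2 CPM ± 1.32 to 11.2 ± 1.53 (-0.99, SE 0.13, adjusted p = 1.73e-06). Tsc2, a brake on mTOR, fell in endothelial cells from 15.7 CPM ± 1.05 to 11.6 ± 1.61 (-0.43, SE 0.11, adjusted p = 0.00463). Eif4ebp1, a translation repressor that mTOR switches off, passed the test in all 4 classes. It rose from 48.2 CPM ± 3.22 to 127 ± 3.42 in endothelial cells (1.40, SE 0.06, adjusted p = 3.23e-13) and from 57.8 ± 2.88 to 124 ± 4.53 in microglia (1.10, SE 0.06, adjusted p = 8.97e-12). In astrocytes it rose from 27.1 CPM ± 4.61 to 61.2 ± 3.44 (1.15, SE 0.18, adjusted p = 1.74e-07) and in pericytes from 50.2 ± 15.2 to 102.5 ± 8.42 (0.98, SE 0.32, adjusted p = 0.0298). With DESeq2 the number of list genes called in pericytes was 1 in place of 3. The genes called higher in pericytes with all libraries were Stc1 and Eif4ebp1. Their count was 1 without sham replicate 1, sham replicate 2 or MCAO replicate 2. In astrocytes 1 gene was higher without sham replicate 2 or 3, and in microglia 8 were higher without sham replicate 3.

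Genes whose levels followed each member closely were read over 26 profiles, the mean log2(CPM + 1) of 13 classes in sham and in MCAO, among 7922 genes that reached 50 CPM in a profile. These correlations are a description, since the profiles share libraries and depth. Igf1 was most like Ap1b1 (Pearson r = 0.83), Dab2 (0.81) and Timd4 (0.81). Igf2 was most like Fbn1 (0.92), Bmp4 (0.92) and Pcolce (0.90), and Igf1r most like Lmo7 (0.88), Proser2 (0.88) and Galnt15 (0.87). For Igf2r the closest were Ogdh (0.70), 2310039H08Rik (0.69) and Pcbp3 (0.69). Igfbp2 went with Ppp1r1a (0.91) and Fbln1 (0.91), and Igfbp3 with Mmrn2 (0.86), Sox18 (0.85) and Adgrl4 (0.84). Igfbp4 went with Cp (0.86), Rcn3 (0.83) and Colec12 (0.81), and Igfbp5 with Cpxm1 (0.92), Col16a1 (0.91) and Slc41a1 (0.90). Igfbp6 was closest to C3, Slc7a11 and Tnfaip2 (0.78 each). Igfbp7 was closest to Col4a1, Ehd2 and Col4a2 (0.95 each), of which Col4a1 and Col4a2 encode collagen chains of the vessel basement membrane.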

How the data were processed

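Chromium 3' libraries, 3 sham and 3 MCAO, were processed with Cell Ranger and STAR on mm10, per the submitters' processing notes, with no versions, annotation or strand setting stated there. The authors deposited raw UMI counts for each gene in each barcode, 25135690 to 42848023 per library, and that number limits precision. Intervals and floors cover counting error only. Barcodes with under 300 genes (15) or over 10% mitochondrial UMIs (1298), and 4662 called doublets (by simulated pairs), were left out. Cells were clustered (2000 variable genes without the 10 members, 30 components, Leiden resolution 1) and named from marker lists of which 4 genes are not in the gene table.

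A cluster stayed unnamed where a second class scored at least 0.55 of the first with 5 or more detected markers. This limit, and counting endothelial segment markers as endothelial ones, were set after the clusters were seen. UMIs were summed per library and class and fitted with edgeR 4.0.16 (R 4.3.3; filterByExpr, TMM, quasi-likelihood, robust), group only, threshold 0.05 after Benjamini-Hochberg adjustment. Members got no test. Members and lists were chosen with earlier results of these data known. Named are all 10 members, up to 4 called pathway genes per class with the largest difference at a mean of at least 10 CPM, and the 3 genes most like each member, of which 1 is not reported here. Positions are from GENCODE on mm10, and all 10 members matched the RefSeq promoter table. The code was tested on simulated data. Alternatives were RLE factors, no scaling, no filter, DESeq2 1.42.0, a replicate block, each library left out, no doublet removal, resolution 0.5, cells thinned to 1500 UMIs and clusters left out.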

Additional observations from a re-analysis of the deposited data

Results flagged for a closer look

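In 5 genes every MCAO library lay above every sham library in 1 class and below in another, and no difference between classes was tested. How many of all genes do so was not counted, and nothing is read from the number. In single classes 9.25% to 34.1% of tested genes did not overlap in a given direction. The pairs given first are, for each gene, the classes with the highest levels, among classes with at least 10 CPM and at least 10% of the gene's highest class. For Igf1 the log2 difference was 3.19 in microglia and -0.85 in border macrophages, 4.04 apart. The microglial value spans clusters that sham and MCAO cells filled unequally. For Igfbp4 it was 0.14 in smooth muscle cells and -1.14 in fibroblasts, 1.28 apart, and at lower levels 2.85 in endothelial cells and -1.23 in microglia. For Igfbp2 it was 0.62 in astrocytes and -0.24 in choroid plexus epithelium, 0.86 apart. For Igfbp7 it was 0.35 in pericytes and -0.50 in fibroblasts, also 0.86 apart, with endothelial cells at 1.22. Igfbp5 had no such pair at those levels, and was at 0.57 in astrocytes and 0.54 in endothelial cells against -1.08 in fibroblasts and -1.95 in ependymal cells. The endothelial value was near the floor, on 56 and 80 UMIs.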

How the results depend on the processing

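Of 944 alternative values for the 78 member differences, 922 moved by less than the spread between replicates. Of the rest 21 moved further, and 1 value whose groups did not overlap turned. Among values whose groups overlap, 23 alternatives changed sign. The value that turned was Igfbp2 in smooth muscle cells, at 0.17 with no doublet removal. Igf1 in microglia was 0.86 without the Mmp12-led cluster, though it was not higher in MCAO within either remaining microglia cluster. Among pathway genes, the number higher in microglia was 3 without that cluster, a setting added after seeing the data. In pericytes DESeq2 called 1 gene in all, 1 higher and 0 lower, resolution 0.5 gave 1 higher, and no doublet removal gave 2 lower. Leaving out each library in turn gave 1 to 3 calls in astrocytes (1 to 2 higher, 0 to 1 lower), 10 to 16 in endothelial cells, 14 to 17 in microglia (5 to 8 higher) and 1 to 2 in pericytes (1 to 2 higher, 0 to 1 lower). Deviations of libraries with the same replicate number correlated at -0.41 to 0.17 over 39 pairs, 3 of them above 0.1. With 3 libraries per group, these values cannot decide whether the numbers pair the samples. The replicate block gave 2, 13, 16 and 3 calls in astrocytes, endothelial cells, microglia and pericytes, against 2, 13, 17 and 3 without it. Few cells limit what some classes can show. The smallest library had 23 T or NK lymphocytes, 34 fibroblasts, 42 monocyte-derived cells and 43 ependymal cells or neutrophils. Values on fewer than 30 UMIs are coarse.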

Other observations

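Outside the named classes, a cluster led by Slc47a1 and Sfrp4, with 51 sham and 48 MCAO cells, carried 5 of the binding proteins at once. Igfbp6 stood there at 1688 CPM ± 455 (SD, n = 3) in sham and 1439 ± 561 in MCAO, which overlapped, and Igfbp5 at 914 ± 264 and 773 ± 125, also overlapping. Igfbp2 was at 571 ± 91.5 and 414 ± 48.2 and lower in every MCAO library, Igfbp4 was at 400 ± 154 and 361 ± 71.7, and Igfbp7 at 599 ± 343 and 570 ± 196. The smallest library had 11 cells of this cluster.

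A second unnamed cluster, led by Npy and Igfbpl1, held 36 sham and 319 MCAO cells. Neuroblasts were its best-scoring class, with 0 of their markers found in at least 25% of cells. Microglia scored second, with 12 markers found at that share. The cluster may thus hold more than 1 kind of cell, and whether its mix differed between the groups was not tested. Its Igf1 level was 138 CPM ± 24.7 in sham, on 20 UMIs, and 17.1 ± 0.851 in MCAO. Its Igf1r level was 42.5 CPM ± 23.3 in sham, on 6 UMIs, and 155 ± 38.2 in MCAO. Both genes were apart between the groups, with 11 cells in the smallest sham library.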
